A study of Triticum aestivum with 10 samples.

Results

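The probes described here were high in the shoot of a wild-type wheat line and at least 32-fold lower in its leaf at 4 °C. They were also lower by a factor of at least 4 in the shoot of a line with hybrid necrosis. They numbered 154 of the 37826 probes on the array. Each was chosen on measured values: a wild-type shoot level above 0, a wild-type shoot level at least 5 log2 units (32-fold) above the wild-type leaf at 4 °C, a necrotic shoot at least 2 log2 units below the wild-type shoot, and a line difference in leaf at 4 °C of less than 1 log2 unit either way. A level is the log2 signal relative to the array's 75th percentile, so that a level of 0 is brighter than 75 percent of the probes.

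The plants were synthetic hexaploid wheats, bread wheat made anew in a cross of a tetraploid wheat and the wild grass Aegilops tauschii. There was 1 line with the wild-type phenotype and 1 line with cold-induced hybrid necrosis, and the labels name no parents or alleles. All plants grew for 3 weeks at 23 °C. Total RNA was measured on 10 one-colour arrays, 2 for each of 5 groups: leaf of the necrotic line at the end of that time, leaf of either line after 12 more weeks at 4 °C, and, again of either line, shoots with their apical meristem after 6 more weeks at 4 °C. The leaf of the wild-type line at 23 °C is not analysed here. Each phenotype is represented by 1 line, so that phenotype and other differences between the lines cannot be told apart. Whether the 2 samples of a group were taken from different plants is not given, so the p-values rest on the spread between these samples, which may be technical.

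Hybrid necrosis is a form of hybrid weakness in which the parents are healthy and some of their offspring develop dying tissue, as known from many crosses of tetraploid wheat with Aegilops tauschii. In the low-temperature form the symptoms appear after growth in the cold. The shoot apex holds the meristem, the group of dividing cells from which leaves and, later, the ear are formed, and its dividing cells use genes for DNA replication, chromatin and cell division that a fully grown leaf uses little.

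The probe names are those of expressed-sequence contigs and clones, and the files pair none of the 154 with a gene name or description. Of the 154 names, 0 were found in the reference gene table. Neither the gene groups of the shoot apex nor markers of shoot and leaf could therefore be checked, and the tissue of a group is what its label says.

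Between 32101 and 32630 of the 37826 probes were well above background on a shoot array, 29243 to 30238 on a cold leaf array, and 28487 and 28880 on the arrays at 23 °C. There were 0 saturated spots. Across probes the 2 arrays of a group had r between 0.994 and 0.997. The 4 shoot arrays shared slide 2, the 4 leaf arrays at 4 °C slide 3 and the 2 arrays at 23 °C slide 1. A line difference is thus a difference within 1 slide. In a comparison of shoot with leaf, or of 4 °C with 23 °C, slide, scan and weeks of growth changed together with tissue or temperature and cannot be told apart from them.

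The 154 probes were lowered in the necrotic shoot, but 1 of them alone had fallen below detection there. Their median level was 2.71 in the wild-type shoot (range 0.02 to 5.57) and 0.27 in the necrotic shoot (−8.48 to 3.50). The median difference was −2.27, or 4.82-fold, with quartiles of −2.73 and −2.11. In the leaf at 4 °C the medians were −7.13 in the wild-type (range −10.36 to −1.04) and −7.12 in the necrotic line (−10.47 to −1.37). These values chose the probes and are given as a description. In samples of whole tissue, fewer cells of a type and less RNA per cell cannot be told apart. On both necrotic shoot arrays 153 of the 154 were still well above background, and 81 had a level above 0 there, that is, a signal above the 75th percentile of the array.

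Array by array the pattern was the same. The median of the 154 levels was 2.69 and 2.74 on the wild-type shoot arrays and 0.28 and 0.29 on the necrotic shoot arrays. On the leaf arrays it was −7.15 and −7.14 for the wild-type line and −7.12 and −7.19 for the necrotic line at 4 °C, and −6.56 and −6.47 for the necrotic line at 23 °C. The SD between the 2 arrays had a median of 0.04 in either shoot group. For all 154 probes both necrotic shoot arrays lay below both wild-type shoot arrays, which the rule nearly fixes. The same held for 88.3% of the 762 probes that met the conditions on wild-type shoot and leaf, whatever their fall. It held for 63.7% of the 168 of these with a shoot line difference within 1. The share was 63.1% of the 9455 probes with a wild-type shoot level above 0 and 43.4% of all probes.

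**Figure D1:**
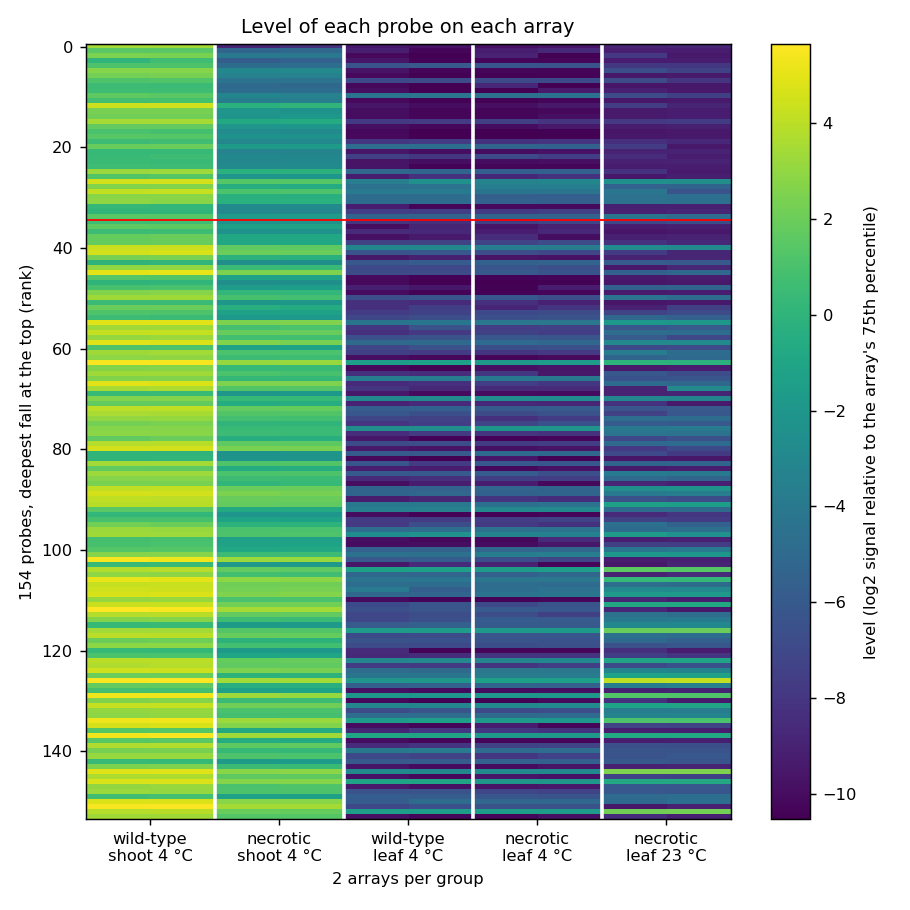
Level of each of the 154 probes (rows, deepest fall in the necrotic shoot at the top) on each of the 10 arrays (columns, 2 per group), as log2 signal relative to the array's 75th percentile. The red line separates the 35 probes that fell by at least 3 from the rest; the necrotic shoot keeps an intermediate level in nearly every row, and most rows are dark in all 3 leaf groups.

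The loss was partial when set against the leaf, an order that the limits of the rule favour. The 153 probes measured in the necrotic shoot had both of its arrays above all 4 leaf arrays at 4 °C. For 150 they lay above all 6 leaf arrays. Among the 762 probes that met the conditions on wild-type shoot and leaf, whatever their fall, the counts were 762 (100%) and 756 (99.2%). Among all probes the shares were 43.3% and 34.3%. The necrotic shoot exceeded the necrotic leaf at 4 °C by at least 5 log2 units for 119 of the 154 and by at least 2 for 151. The limit of 5 between wild-type shoot and leaf favours such gaps, and no share of other probes is set beside these 2 counts. Of the 153, 84 were also measured on both wild-type leaf arrays. In these the fall took away a median of 27.7% of the log2 difference between wild-type shoot and wild-type leaf (range 16.3 to 82.8%), and at least 50% in 4. The 4 were whsh_allContig512 (82.8%), MUGEST2003_23lib_Contig9631_218 (80.3%), whei16n21_412 (68.8%) and wheat0130Contig3095 (54.8%), of which all but the second were named after their values were seen. In the 58 measured in the necrotic shoot and on neither wild-type leaf array the share is an upper limit, with a median of 26.8% and a range of 16.1 to 71.5%. For the 59 probes not well above background in the wild-type leaf the leaf level is a bound only. For these the wild-type shoot was at least 8.10 to 12.88 log2 units above the leaf, with the lowest detected signal of each leaf array as the floor.

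The limit of 2 log2 units cut through a broad shift of shoot-rich probes rather than around a separate group. In all, 1032 probes met the conditions on the wild-type shoot, and 762 of these also met the condition on the leaf. The median shoot line difference of the 762 was −1.64, against −0.05 for all 37826 probes. Of the 762, 154 were at −2 or below, 412 lay between −2 and −1, 168 lay within 1 of 0 and 28 were at 1 or above. The fullest interval of 0.25 lay just outside the limit, with 158 probes between −2 and −1.75, and the next interval inside it held 75. Counts then fell to 30, 11 and 3 in the following intervals, and 35 probes lay at −3 or below.

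Differences of this size were uncommon over the array as a whole. Among all probes 833 (2.20%) were at −2 or below, and among the 9455 with a wild-type shoot level above 0 there were 266 (2.81%). Both counts include the 154. Of the 270 shoot-rich probes that did not meet the leaf condition, 29 were at −2 or below. Of these 29, 19 were higher and the others lower in the necrotic leaf, and 7 had no cold leaf array well above background. In those 7, as in 54 of the 154, the leaf condition was read from signals without a measured order. The opposite kind of probe, with a wild-type leaf level above 0, at least 5 above the wild-type shoot and alike in the leaves of both lines, numbered 413. Its median shoot line difference was 0.92, and 203 of the 413 were at least 1 higher in the necrotic shoot against 23 at least 1 lower. Both kinds of probe were defined on the wild-type shoot level, which also enters this difference.

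**Figure D2:**
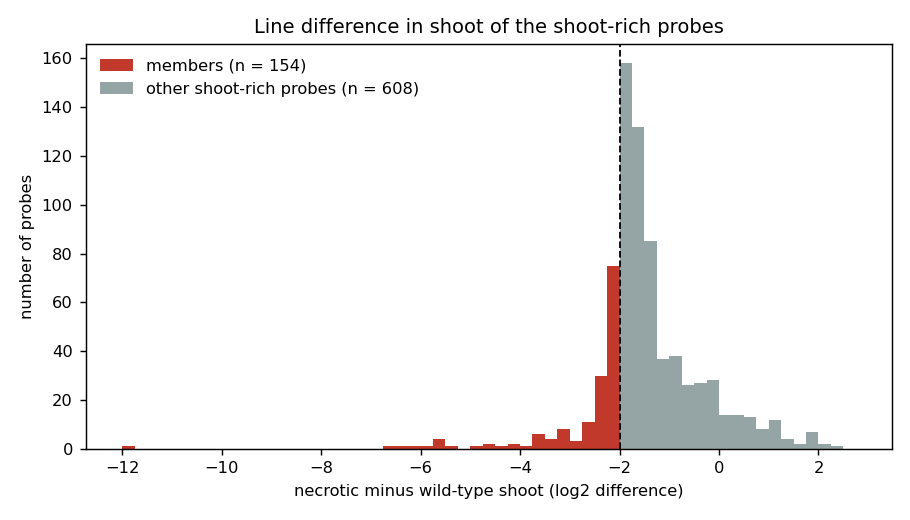
Number of shoot-rich probes with like levels in the leaves of both lines (n = 762) by their necrotic minus wild-type shoot difference, in intervals of 0.25 log2 units. The 154 probes at −2 or below (red, left of the dashed line) are the lower flank of a peak at −2 to −1.5 together with a thin tail of 35 probes at −3 or below.

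The values at the other limits were also close together. Just inside the limit on the fall stood probes at −2.003 and −2.006, and just outside it probes at −1.999 and −1.997. For the wild-type shoot level the nearest members stood at 0.02 and 0.06 and the nearest other probes at −0.03 and −0.08. For the difference from the leaf the values were 5.02 and 5.06 inside and 4.97 and 4.90 outside. For the line difference in leaf they were 0.97 and 0.96 inside against 1.05 and 1.07 outside at the upper limit, and −0.98 and −0.86 inside against −1.01 and −1.03 outside at the lower one.

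The deepest falls were those of a few probes. The necrotic shoot was at least 3 log2 units lower for 35 probes, at least 4 for 16, at least 5 for 10 and at least 6 for 4. The deepest was that of wheat0130Contig9191. It stood at 3.44 and 3.36 on the wild-type shoot arrays and at −8.82 and −8.15 on the necrotic shoot arrays. On the wild-type leaf arrays it read −9.46 and −9.74, on the necrotic leaf arrays −9.86 and −9.69 at 4 °C and −8.90 and −8.78 at 23 °C. It was well above background in the wild-type shoot alone, and neither necrotic shoot array nor any leaf array measured it. With the lowest detected signal of each necrotic shoot array as the floor wherever the probe read less, its fall was at least 3508-fold. It is the 1 probe of the 154 to which the word lost applies.

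The next probe, wheat0130Contig6656, kept a measurable signal. It stood at 1.54 and 1.49 in the wild-type shoot and −5.34 and −5.13 in the necrotic shoot, 108-fold lower. Its leaf signals, at −10.30 to −8.74 over the 6 arrays, were not well above background. wheat0130Contig5354 fell from 2.48 and 2.42 to −3.99 and −4.04 and wheat0130Contig8327 from 0.08 and 0.66 to −5.77 and −5.53. Neither was measured in leaf. The wild-type arrays of wheat0130Contig8327 were 0.58 apart, and this gap is small beside its fall of 6.02.

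MUGEST2003_23lib_Contig9631_218 differed from these in its leaf level. It stood at 1.11 and 1.12 in the wild-type shoot and −4.81 and −4.66 in the necrotic shoot, 57.8-fold lower. In the leaf at 4 °C it was measured in both lines, at −6.36 and −5.98 in the wild-type and −6.18 and −6.33 in the necrotic line. Its necrotic shoot thus lay 1.52 log2 units above the necrotic leaf, and 80.3% of the log2 difference between wild-type shoot and leaf was gone. The sixth probe, wheat0130Contig8689, stood at 2.74 and 2.75 against −2.99 and −2.92 and was not well above background in either leaf group at 4 °C.

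The brightest probes showed the shallow end of the range. MUG008B08R990628 had the highest level in the wild-type shoot, 5.65 and 5.49, and stood at 3.47 and 3.41 in the necrotic shoot, 4.38-fold lower. Its leaf levels at 4 °C were −6.60 and −6.25 in the wild-type and −5.87 and −6.14 in the necrotic line, and it was not well above background at 23 °C. wheat0130Contig3822 had the highest level in the necrotic shoot, 3.50 on both arrays, against 5.49 and 5.53 in the wild-type shoot. These probes remained among the brighter signals of the necrotic shoot although they met the limit on the fall.

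**Figure D3:**
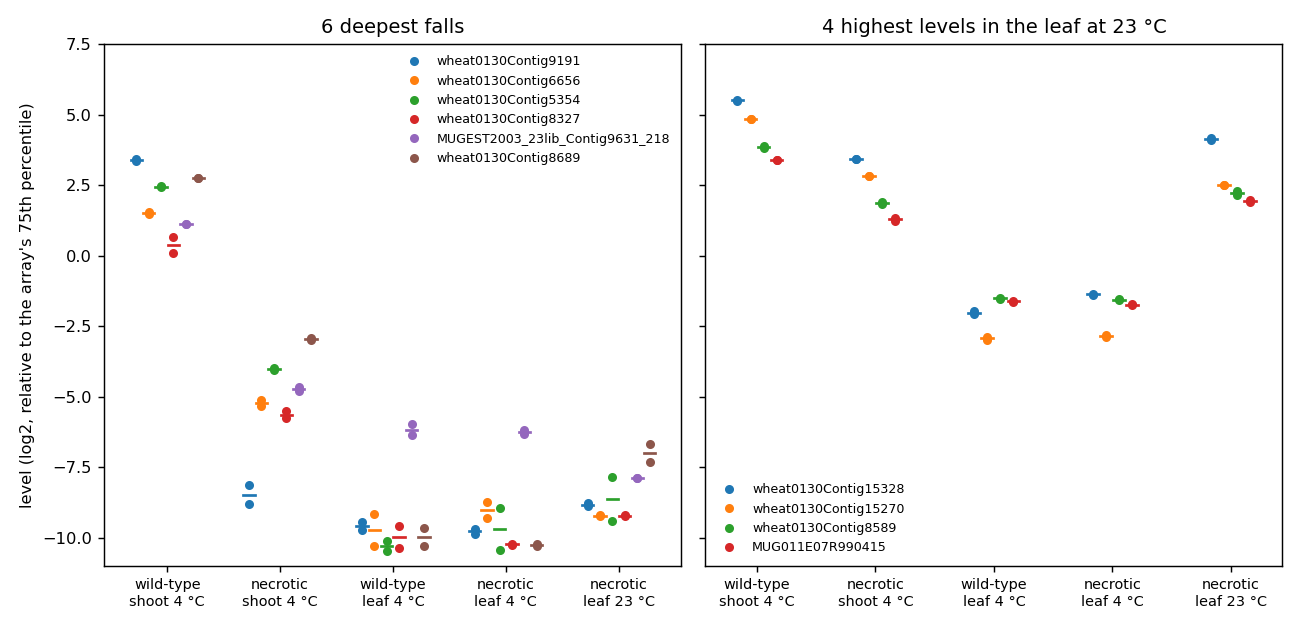
Levels on each array (points, 2 per group) and group means (short lines) of the 6 probes with the deepest falls (left) and of the 4 probes with the highest level in the necrotic leaf at 23 °C (right). On the left the leaf levels are mostly near or below the lowest signal well above background; on the right the leaf at 23 °C lies close to the necrotic shoot while the leaf at 4 °C lies far below both.

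Probes with deep and with shallow falls differed in more than the fall itself. Of the 35 that fell by at least 3, 19 had none of the 6 leaf arrays well above background, against 22 of the 105 that fell by less than 2.5. Their median level in the wild-type shoot was 1.51, against 3.13 for the 105. On both arrays at 23 °C, which did not enter the choice of probes, 6 of the 35 and 72 of the 105 were well above background. The median level there was −8.85 for the 35 and −5.30 for the 105. Across the 154 probes the shoot difference and the level at 23 °C had r = 0.35 and rho = 0.43. The level at 23 °C also followed the wild-type shoot level (r = 0.57, rho = 0.57), so brighter probes were brighter on both slides. Probes share arrays and brightness, and these values are a description without a test.

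The leaf at 23 °C is the group that the rule did not use. The median level of the 154 was −6.54 there, and it ranged from −9.51 to 4.14. On both arrays 82 were well above background (53.2%) and on neither array 68 (44.2%). The shares were 66.7% and 31.5% of the 168 shoot-rich probes whose shoot line difference lay within 1, and 74.7% and 23.0% of all probes. The wild-type shoot was at least 5 log2 units above this leaf for 143 of the 154 (92.9%), against 628 of the 762 shoot-rich probes (82.4%) and 135 of these 168 (80.4%). Of all probes 1727 (4.57%) were as far above it. The wild-type shoot arrays, which the rule used, enter these counts, and the difference between the shares was not tested. All 154 had both wild-type shoot arrays above both arrays at 23 °C. Other shoot-rich probes shared this order: the mean level at 23 °C was above the wild-type shoot for 0 of the 762. It was so for 51.7% of all probes.

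A few of the probes were bright in the young leaf. Their level at 23 °C was above 0 for 8 of the 154 (5.19%), against 78 of the 762 (10.2%), 7 of the 168 with a shoot line difference within 1 (4.17%) and 9452 of all 37826. In 3 of these 8 it was above the necrotic shoot on both arrays. That is 1.95% of the 154, against 5 of the 762 (0.656%), 0 of the 168 and 46.8% of all probes. The rule asked for a lowered necrotic shoot, which enters this order. The first of the 3 was wheat0130Contig15328, at 4.09 and 4.18 at 23 °C. Its levels were 3.43 and 3.44 in the necrotic shoot and 5.49 and 5.53 in the wild-type shoot. In the leaf at 4 °C it stood at −1.35 and −1.39 in the necrotic and −2.09 and −1.97 in the wild-type line. Its level in the leaf at 23 °C was thus 1.37 below the wild-type shoot and 0.70 above the necrotic shoot.

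The other two were wheat0130Contig8589 and MUG011E07R990415. wheat0130Contig8589 stood at 2.16 and 2.27 at 23 °C and at 1.90 and 1.81 in the necrotic shoot. MUG011E07R990415 stood at 1.91 and 1.95 at 23 °C and at 1.33 and 1.24 in the necrotic shoot. In the necrotic leaf at 4 °C they were at −1.55 and −1.58 and at −1.77 and −1.74. For all 3 the leaf at 23 °C lay between the shoots of the lines, below both wild-type and above both necrotic arrays.

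**Figure D4:**
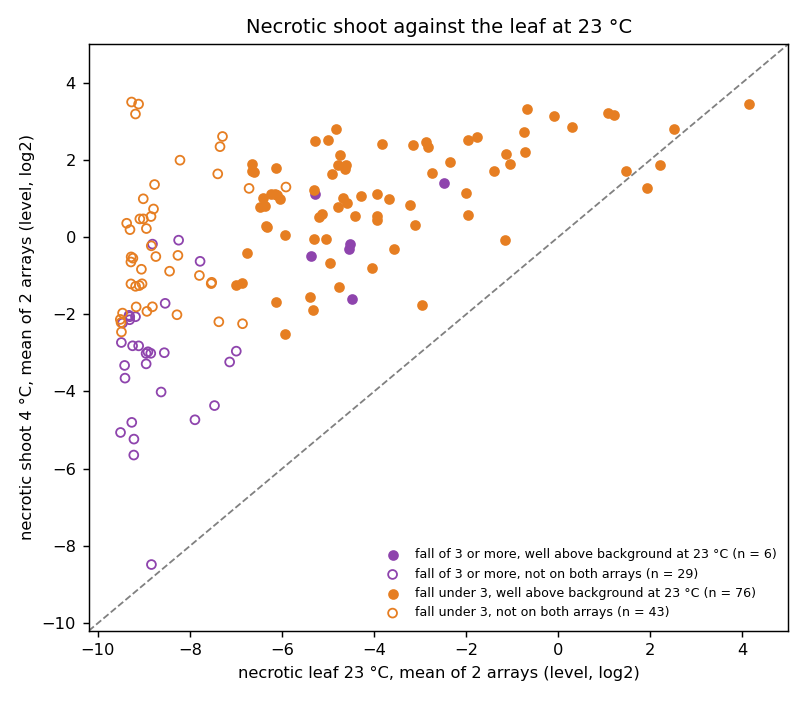
Mean level of each of the 154 probes in the necrotic leaf at 23 °C (horizontal) against the necrotic shoot at 4 °C (vertical), both as log2 signal relative to the array's 75th percentile, with the line of equal level dashed. Purple points fell by at least 3 and orange points by less; filled points were well above background on both arrays at 23 °C. Below the dashed line lie 3 probes, and 29 of the 35 purple points are open.

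The temperature comparison asked how the necrotic leaf after 12 weeks at 4 °C differed from the leaf at 23 °C, and it is the one comparison with a group outside the rule. That group is the leaf at 23 °C alone. The arrays of the necrotic leaf at 4 °C entered the rule, which kept their level within 1 of the wild-type leaf at 4 °C. That leaf had to lie at least 5 below the wild-type shoot. These limits favour a low level at 4 °C and so lower this difference. The counts and p-values below are therefore partly set by the choice of probes and are no independent evidence of a direction. Of the 73 probes well above background on both arrays of each temperature, 54 (74%) were lower at 4 °C and 9 (12.3%) higher, by limma with Benjamini-Hochberg adjustment over all probes tested and an adjusted p under 0.05. Over all 27830 probes measured at both temperatures 47.1% were lower and 32.8% higher. With a difference of at least 2-fold, 47 of the 73 were lower (64.4%) and 5 higher (6.85%), against 17% and 10.5% of all. Over the 33096 probes tested, whether measured at both temperatures or not, 45.2% were lower and 31.6% higher.

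Other shoot-rich probes are set beside these for description, and the differences between the sets were not tested. Of the 496 shoot-rich probes measured at both temperatures, which include the 73, 58.7% were at least 2-fold lower and 7.06% at least 2-fold higher at 4 °C. Of the 103 such probes with a shoot line difference within 1, 43.7% were lower and 11.7% higher. The median difference was −1.48 for the 73 probes, −0.52 for these 103 and −0.17 for all 27779 probes with a fitted value. Each of these shoot-rich sets was chosen with the wild-type leaf at 4 °C at least 5 below the wild-type shoot. That limit favours a low leaf level at 4 °C without fixing one: among the 168 the necrotic leaf at 4 °C reached 0.04.

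The largest measured difference was that of wheat0130Contig6154, at −0.75 and −0.68 at 23 °C and −6.96 and −6.31 at 4 °C in the necrotic leaf. It was 60.4-fold lower at 4 °C (log2 difference −5.92, SE 0.25, adjusted p by limma = 1.38e-06), and the cold wild-type leaf was as low, at −6.89 and −6.26. With normexp background correction, which compresses dim signals, its difference was −3.88. wheat0130Contig15328, described above, was 45.5-fold lower (log2 difference −5.51, SE 0.055, adjusted p by limma = 3.99e-09), and wheat0130Contig15270 fell from 2.52 and 2.51 to −2.82 and −2.88, 41.1-fold. The differences of wheat0130Contig8589 and MUG011E07R990415 were 13.7-fold and 12.9-fold in the same direction. For all 5 both arrays at 4 °C lay below both arrays at 23 °C.

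Rises in the cold were fewer and smaller. MUGEST2003_23lib_Contig1060_155 stood at −6.46 and −6.18 at 23 °C and at −4.01 and −4.05 in the necrotic leaf at 4 °C. The rise was 4.88-fold (2.29 on the log2 scale with an SE of 0.087, adjusted p by limma = 7.81e-07), and with normexp the difference was 0.22. wheat0130Contig4192 rose from −5.02 and −4.90 to −2.94 and −2.84, or 4.20-fold (adjusted p by limma = 4.13e-07), and by 0.73 on the log2 scale with normexp. The cold wild-type leaf also gave both a measured level, of −3.72 and −3.74 for the first and of −3.62 and −3.47 for the second.

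The other 81 probes had no measured difference between the temperatures. In 49 neither temperature had an array well above background, and in 11 only some arrays did. The 5 probes measured at 23 °C alone were at least 2.65-fold to 8.16-fold lower at 4 °C, a direction that this kind of detection fixes: 247 of all 248 such probes (99.6%) were called lower. Of the 16 measured at 4 °C alone, 12 had a bound above 1, of at least 1.09-fold to 3.98-fold higher at 4 °C, and for 4 no fold can be given. The fit called 12 of the 16 higher (75%), against 73.8% of all 1323 such probes. It called 1 of the 16 lower (6.25%), against the detection, as it did 1.21% of the 1323. These counts move with the arrays' detection limits, since the lowest level well above background was −7.24 and −7.16 at 23 °C and −8.19 to −7.89 on the leaf arrays at 4 °C. wheat0130Contig11680 shows how far 2 arrays at 23 °C could disagree: it stood at −8.91 and −2.92 there, and its difference did not pass the threshold (−2.61, SE 1.66, adjusted p by limma = 0.192).

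The names of the 154 probes show from which sequence collections they came. Contigs named wheat0130 made up 99 of the 154 (64.3%), against 62.5% of the 762 shoot-rich probes, 56.9% of the 9455 with a wild-type shoot level above 0 and 36.9% of all probes. Clones whose name begins with MUG and a number made up 27 (17.5%), against 16.5%, 8.58% and 3.48%. Contigs of the MUGEST2003 collection made up 10 (6.49%), against 7.61%, 11.6% and 20.1%. The 762 include the 154. Among the 168 shoot-rich probes with a shoot line difference within 1, the shares of the 3 collections were 56.5%, 8.33% and 16.1%. The differences between these shares were not tested. Of the 27 MUG clones, 10 had names ending in R990628, against 22 of the 126 shoot-rich MUG clones and 226 of all 1317. Counting this ending was not set out in advance, and the difference between its shares was not tested. What that ending stands for is not given in the sources used here, and no probe of the 154 shared its contig or clone name with another probe.

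The spots of the 154 probes lay over the whole array, with 48, 41, 32 and 33 in 4 equal blocks of its rows from first to last. The first block held 31.2% of the 154 and 24.6% of all probes, the third 20.8% and 25.3%. None of the 154 was marked as an outlier spot on any of the 10 arrays, against 387 of all 37826 probes (1.02%). The agreement of the 2 shoot arrays of a line differed between probes by far less than the falls. The larger of the 2 gaps was 0.006 for wheat0130Contig14531, which fell from 4.24 and 4.25 to 1.87 and 1.88. It was 0.68 for wheat0130Contig9191, the widest, and its median over the 154 was 0.08.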

How the data were processed

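Each of the 10 wheat RNA samples was read on an Agilent array of its own, in the Cy3 channel. The authors deposited the scanner output, which gives each spot's intensity on a linear scale. It was made with Agilent Feature Extraction. The file headers give its version as 10.5.1.1, the submitters' processing notes as 9.5. The deposited series matrix gives the same intensity values at all 39243 features (largest relative difference 0). Its scale is thus linear, without centring and without a ratio whose direction could be unknown. Its column medians were 301.2 and 292.6 (wild-type shoot), 316.1 and 305.7 (necrotic shoot), 212.6 and 189.5 (wild-type leaf at 4 °C), 196.4 and 186.5 (necrotic leaf at 4 °C), and 104.8 and 106.3 (necrotic leaf at 23 °C).

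From the processed intensity of the 37826 non-control probes, log2 values minus each array's 75th percentile (789.5 and 807.7 at 23 °C, 1539 to 1901 on the others) gave the levels. The temperature comparison used limma 3.58.1 in R 4.3.3 with the data.table package (version 1.17.8): 1 mean per group over 10 arrays, lmFit and eBayes, 5 residual and 1.56 prior degrees of freedom, a median residual SD of 0.078, two-sided tests and Benjamini-Hochberg adjustment over 33096 probes. A probe was tested if at least 1 group had both of its arrays well above background. Outlier spots were missing in this fit. The step was tested on simulated data. The line and tissue differences were used by the rule and were not tested. Precision is limited by 2 arrays per group. Figures were drawn with matplotlib 3.10.9.

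The 154 probes and the settings were chosen with earlier results of these data known. Probes are named for the highest shoot and 23 °C levels, the deepest falls, the largest temperature differences and the smallest and largest gaps between replicates. The limit to probes measured at both temperatures was added later, as were wheat0130Contig11680 and the comparison of deep with shallow falls. For a bound, each array of the dim group was set to its lowest signal well above background wherever the probe read less, and the mean of these log2 levels was subtracted from that of the bright group. The mean signal named for normexp was replaced by the median signal, with an offset of 50. Samples with the same replicate number did not vary together (correlations of −0.01 to 0.06), and the main fit did not pair them. Such values cannot exclude that they share a plant or a batch. No sequence is printed, since the tables used here hold none for these probes.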

Additional observations from a re-analysis of the deposited data

How the results depend on the processing

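How many probes met the rule depended on where its limits were set and on the scaling. With a fall of at least 1.5 there were 444 and with at least 3 there were 35; scaling to the array median gave 280 (148 of the 154 among them), and 66 of the 154 were well above background on all 10 arrays. Normexp gave 177 (133 shared), quantile normalization 103 (90 shared) and the percentile over probes measured on all arrays 139 (130 shared). Leaving out each array in turn gave 149 to 164. The median shoot line difference of the 154 was −2.26 (normexp), −2.16 (quantile) and −2.35 (median scaling). In the order wild-type shoot, necrotic shoot, wild-type leaf, necrotic leaf at 4 °C and at 23 °C, the median levels were 5.24, 2.72, −4.21, −4.24 and −3.77 with scaling to the median, 2.03, −0.42, −7.98, −7.95 and −7.37 with the percentile over measured probes, and 3.41, 1.19, −4.82, −4.97 and −3.93 for the 66 probes. With normexp the last 4 were 0.18, −4.63, −4.54 and −3.67. With quantile normalization the wild-type shoot was 2.60 and the leaves were −6.55, −6.66 and −6.28. In the temperature comparison 48 to 66 of the 154 were lower and 5 to 10 higher over all settings run; normexp gave the 5, of which 1 was at least 2-fold. The median difference of all probes was −0.17, and under the same settings −0.33, −0.08 and −0.05. With the replicate number as a block (replicate block) 54 were lower and 10 higher, and the block changed no count by over 1.5 times. Slide could not be fitted as a block, since each temperature lay on its own slide. Signal over background limits the leaf values: 47 of the 154 were not well above background on any leaf array.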
